A study of Mus musculus with 10 samples.

Results

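The genes described here encode the NADH shuttles of the hepatocyte and the lactate dehydrogenase chain of the liver. They are Got1, Got2, Mdh1, Mdh2, Slc25a11, Slc25a12 and Slc25a13 of the malate-aspartate shuttle, Gpd1 and Gpd2 of the glycerol 3-phosphate shuttle, and Ldha. They were chosen by name, and their probes were found through the RefSeq accession that the array gives for each probe. All 10 genes were represented, by 19 probes, and all 10 were among the 15089 genes tested. Liver RNA came from adult male C57BL/6J mice, 7 weeks old at purchase and acclimatized for 1 week on standard chow. Both groups, HFD control and HFD ethanol, then ate a diet labelled 60% high fat (5.5 kcal per g) for 4 months. After the first month the HFD ethanol mice took ethanol with their drinking water for 3 months, at a daily dose of 5 g per kg in week 1 and of 10 g per kg from then on, and the HFD control mice took none. The experiment held 10 mice per group, and 5 of each were drawn at random for arrays, with 1 liver on each 1-colour Agilent array, so n = 5 counts animals. There was no group on standard chow among these arrays, so the comparison is of a high-fat diet with and without ethanol.

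NADH made in the cytosol cannot cross the inner mitochondrial membrane, and shuttles carry its electrons instead. Oxidation of ethanol by alcohol dehydrogenase forms NADH in the hepatocyte cytosol, so these shuttles and lactate dehydrogenase are the routes by which the cell regenerates cytosolic NAD while it clears alcohol. In the malate-aspartate shuttle, cytosolic malate dehydrogenase (Mdh1) passes the electrons to malate, the carrier Slc25a11 takes malate into the matrix in exchange for 2-oxoglutarate, mitochondrial malate dehydrogenase (Mdh2) recovers the NADH, and the aspartate aminotransferases Got2 and Got1 with the aspartate-glutamate carriers Slc25a12 (aralar) and Slc25a13 (citrin, the main liver form) return the carbon. In the glycerol 3-phosphate shuttle, cytosolic Gpd1 reduces dihydroxyacetone phosphate with NADH, and Gpd2 in the inner membrane passes the electrons on to ubiquinone.

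The 2 genes of the glycerol 3-phosphate shuttle had higher signals with ethanol, Gpd1 by 1.55-fold and Gpd2 by 1.38-fold (0.63 and 0.47 in log2). The 7 genes of the malate-aspartate shuttle had a median log2 fold change of 0.07, close to the 0.03 of all genes tested. Among these 7, however, Got1 was at 0.48, beside 0.47 for Gpd2, with ethanol livers that overlapped the controls. With the mean of each gene's probes Got1 was at 0.49 and Gpd2 at 0.28. None of the 10 genes passed the threshold, an adjusted p under 0.05 in limma over all 15089 genes, which 0.0199% of all genes passed (0.0133% higher and 0.00663% lower with ethanol). At an unadjusted p under 0.05 there were 2 of the 10, Gpd1 and Gpd2, both higher with ethanol, and none was lower, beside 13.3% of all genes, 8.11% higher and 5.22% lower. For 8 of the 10 genes the log2 fold change was above 0, beside 56.8% of all genes. With quantile normalization 6 of the 10 were above 0, beside 46.3% of all genes. The median over the 10 genes was 0.11.

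The share of spots well above background ran from 55.5% to 59.1% over the arrays, no spot was saturated, and all 19 probes of these genes were well above background on all 10 arrays. The number of arrays limits the precision. Each value is a log2 signal relative to the 75th percentile of its array, so 1 unit is a doubling. The 10 arrays lay on 3 slides. Ethanol replicate 4 shared slide 1 with control replicates 4 and 5, slide 2 had only control arrays (replicates 1 and 3), and the other ethanol arrays shared slide 3 with control replicate 2. Slide column 1 held only ethanol arrays (replicates 2 and 3) and slide column 4 only control arrays (replicates 1, 4 and 5). Slide column and ethanol therefore cannot be told apart in those columns, whatever the gene. All 9 hepatocyte markers, among them Alb and Hnf4a, were well above background on all arrays. Their summed signal, in multiples of the array's 75th percentile, was 3482 to 4793 in control and 3914 to 4316 in ethanol livers. The brightest markers, such as Alb, carry most of this sum, which does not show the spread of dimmer ones. Cps1 ran in log2 from 1.98 to 3.04 in control and from 0.91 to 3.69 in ethanol livers. Tat ran from 3.06 to 4.15 and from 2.84 to 4.58. The summed signal of the 6 stellate cell markers ran from 70.0 to 91.7 in control and from 50.04 to 72.6 in ethanol livers, with 5 of the 6 at a fold change below 0. That of the 3 measured of 5 bile duct markers ran from 8.89 to 27.5 and from 3.22 to 16.2, most of it from Spp1. For 8 macrophage markers the ranges were 39.5 to 64.5 and 35.1 to 67.5, for 5 endothelial markers 23.9 to 31.0 and 24.9 to 30.6, and for 5 lymphocyte markers 9.74 to 14.9 and 7.46 to 13.6. For the 2 measured of 3 red blood cell markers they were 184.2 to 375.3 and 193.0 to 442.9. Of the adipocyte markers only Lep was kept, at 0.999 to 1.33 in control and 1.14 to 1.42 in ethanol livers, and none of the 3 striated muscle markers was. In whole liver, fewer cells of a type and less RNA per cell cannot be told apart, and the part of cell makeup in the results below was not tested.

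**Figure D1:**
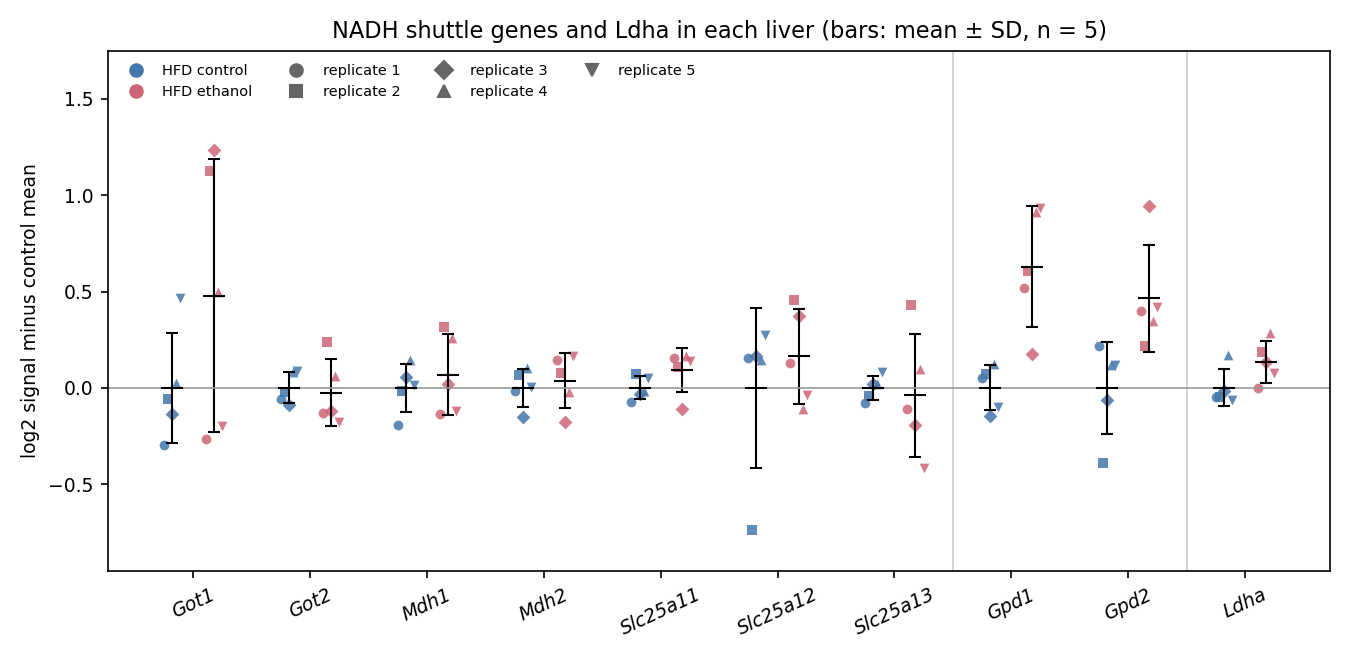
Log2 signal of each gene in each liver minus the mean of the control livers, for 5 HFD control (blue) and 5 HFD ethanol (red) mice, with marker shapes for replicate numbers and bars for the mean ± SD (n = 5). Gpd1 and Gpd2 have mean differences of 0.63 and 0.47, and the signals of Got1 run from 3.28 to 4.78 among the ethanol livers.

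Gpd1, the cytosolic glycerol 3-phosphate dehydrogenase, had log2 signals of 7.43, 7.45, 7.24, 7.51 and 7.28 in control replicates 1 to 5 and of 7.90, 7.99, 7.56, 8.30 and 8.31 in ethanol replicates 1 to 5. All 5 ethanol livers lay above the highest control liver, with ethanol replicates 4 and 5 highest and ethanol replicate 3 closest to the controls. The group means were 7.38 ± 0.12 (SD, n = 5) and 8.01 ± 0.31 (SD, n = 5), and the log2 fold change was 0.63 ± 0.14 (SE), with a 95% interval from 0.32 to 0.94. In limma the unadjusted p was 0.00116 and the adjusted p was 0.175. The other probe of Gpd1 gave 0.50 ± 0.18 (SE). There, the control livers ranged from -0.28 to 0.50 and the ethanol livers from 0.36 to 1.03, so the groups overlapped. The fold change of the first probe was 0.90 within slide 1, where 1 ethanol array stood against 2 control arrays, 0.49 within slide 3, where 4 ethanol arrays stood against 1 control array, and 0.68 with slide as a fixed block. Slide 2 held control arrays only. The gap between the lowest ethanol and the highest control liver was 0.05, and it became an overlap with quantile normalization (-0.10) and with the mean of both probes (-0.0050).

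Gpd2, the mitochondrial partner, had log2 signals of 1.40, 0.79, 1.12, 1.30 and 1.30 in the control livers and of 1.58, 1.40, 2.12, 1.53 and 1.60 in the ethanol livers, in the order of the replicates. Ethanol replicate 3, the lowest ethanol liver for Gpd1, was the highest for Gpd2, and control replicate 2 was the lowest of all. The means were 1.18 ± 0.24 (SD, n = 5) and 1.65 ± 0.28 (SD, n = 5), with a log2 fold change of 0.47 ± 0.15 (SE), a 95% interval from 0.12 to 0.81, an unadjusted p of 0.0125 and an adjusted p of 0.292 in limma. The groups were apart by only 0.0018 and overlapped with each of the other scalings or background corrections tried. Ethanol values all above control values were found for 2 of the 10 genes, Gpd1 and Gpd2, and for 1.97% of all genes tested, and none of the 10 lay wholly below the controls (1.07% of all genes). The other probe of Gpd2, which names the same transcript, gave 0.09 ± 0.19 (SE), with control livers from -2.87 to -2.13 and ethanol livers from -2.58 to -1.78, so that the probes did not show the same size of difference. With the mean of both probes the log2 fold change of Gpd2 was 0.28. Within slide 1 the difference of the first probe was 0.23 and within slide 3 it was 0.88, where the 1 control liver was control replicate 2. Without control replicate 2 it was 0.37.

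**Figure D2:**
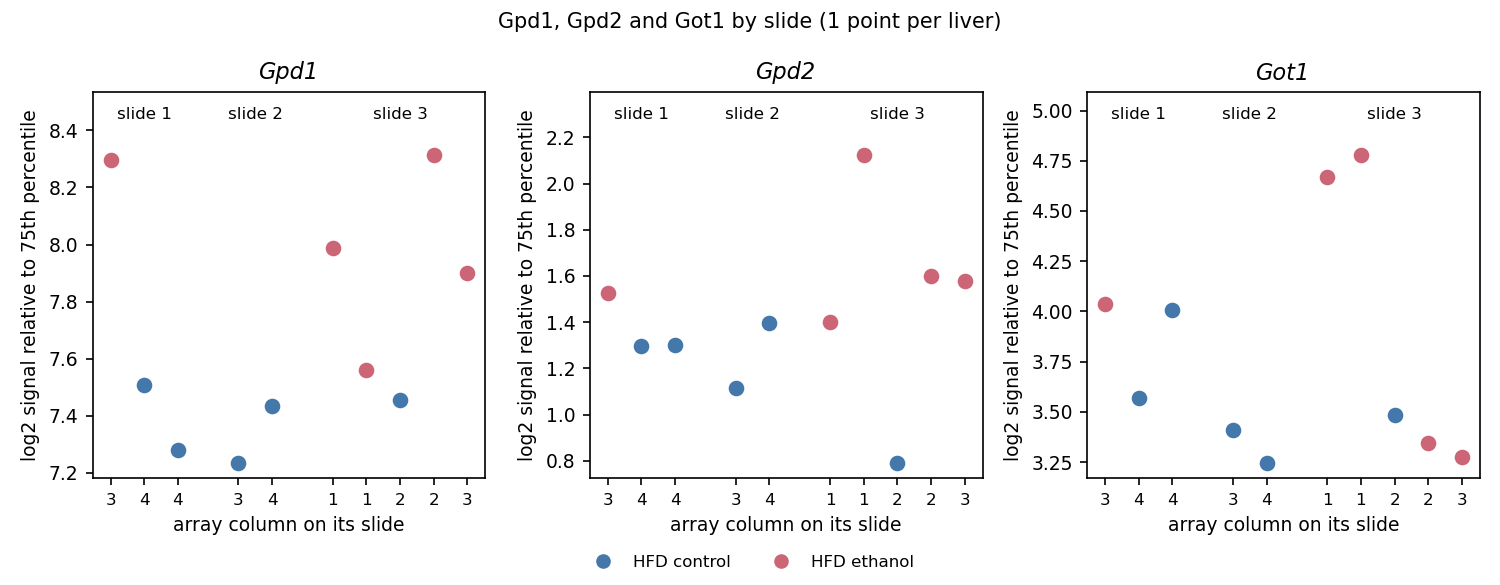
Log2 signal of Gpd1, Gpd2 and Got1 on each array (1 point per liver, blue for HFD control, red for HFD ethanol), grouped by slide, with the slide column of each array along the x axis. For Gpd1 each ethanol liver lies above the control livers of its own slide, and for Got1 the highest signals, 4.67 and 4.78, belong to the ethanol arrays of slide column 1.

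RefSeq places 2 transcription starts for Gpd2. The 250 bases before each are shown because Gpd2 is the only gene of this shuttle with a promoter sequence in the table used, which covered 9 of the 10 genes with 11 windows (build GRCm38.p6). Each window of 300 bases, 250 before and 50 after the start, was searched on both strands for CACGTG (the E-box), ACGTG (the hypoxia response core, which every CACGTG holds) and TGACG (an arm of the cyclic AMP response element). Capitals mark a match. The 250 bases before the first start lie at chr2:57237428-57237677 and those before the second at chr2:57238132-57238381, both on the plus strand.
Gpd2 first start: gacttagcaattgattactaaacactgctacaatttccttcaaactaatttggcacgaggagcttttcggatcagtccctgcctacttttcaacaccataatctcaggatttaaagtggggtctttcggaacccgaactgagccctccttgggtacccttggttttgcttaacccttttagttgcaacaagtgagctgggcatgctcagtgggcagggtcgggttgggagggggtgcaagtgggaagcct
Gpd2 second start: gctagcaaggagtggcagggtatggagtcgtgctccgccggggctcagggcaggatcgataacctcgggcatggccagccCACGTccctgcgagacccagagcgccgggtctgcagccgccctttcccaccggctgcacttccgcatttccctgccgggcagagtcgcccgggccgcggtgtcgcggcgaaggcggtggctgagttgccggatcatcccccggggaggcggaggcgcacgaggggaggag
The first window held none of the motifs and the second held 1 hypoxia response core. An E-box was in 7.15% of 32851 promoter windows of all genes, the hypoxia core in 19.6% and the cyclic AMP arm in 20.8%. Of the 11 windows of these genes, 2 held an E-box, 4 the hypoxia core and 4 the cyclic AMP arm, and these matches are descriptions of letters only.

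Ldha, the lactate dehydrogenase chain that interconverts pyruvate and lactate in the cytosol, had log2 signals of 8.46, 8.46, 8.49, 8.68 and 8.45 in the control livers and of 8.51, 8.70, 8.64, 8.80 and 8.58 in the ethanol livers. In 4 of 5 ethanol livers it was above the mean of the controls, but control replicate 4 lay above 3 of them and the groups overlapped. The means were 8.51 ± 0.10 (SD, n = 5) and 8.65 ± 0.11 (SD, n = 5). The log2 fold change was 0.14 ± 0.08 (SE), a 1.10-fold difference, with a 95% interval from -0.04 to 0.31 and an adjusted p of 0.453 in limma. The other Ldha probe gave 0.19 ± 0.11 (SE). Within slides 1 and 3 the first probe gave 0.23 and 0.14, and with quantile normalization it gave 0.07. The 250 bases before the first Ldha start, at chr7:46845554-46845803 on the plus strand, are shown because of the 11 windows that of this start held the most matches, with 2 E-boxes, 1 further hypoxia core and a full palindrome of the cyclic AMP response element.
Ldha first start: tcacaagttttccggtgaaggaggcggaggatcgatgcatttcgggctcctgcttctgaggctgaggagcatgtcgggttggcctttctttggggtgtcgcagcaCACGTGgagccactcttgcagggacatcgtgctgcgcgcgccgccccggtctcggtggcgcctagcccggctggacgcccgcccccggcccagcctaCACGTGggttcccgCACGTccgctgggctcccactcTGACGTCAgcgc
The second Ldha start had 1 cyclic AMP arm and neither of the other motifs.

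Of the aminotransferases, Got1, the cytosolic form, spread most of the 10 genes over the arrays, with an SD of 0.57 over the 10 livers. Its log2 signals were 3.25, 3.49, 3.41, 3.57 and 4.01 in the control livers and 3.28, 4.67, 4.78, 4.04 and 3.34 in the ethanol livers. Ethanol replicates 2 and 3 stood well above the controls, ethanol replicate 4 was level with the highest control liver, and ethanol replicates 1 and 5 lay among the controls. The means were 3.54 ± 0.29 (SD, n = 5) and 4.02 ± 0.71 (SD, n = 5), and the log2 fold change was 0.48 ± 0.31 (SE), with a 95% interval from -0.20 to 1.16 and an adjusted p of 0.493 in limma. The other Got1 probe showed the same livers high, at 1.54 and 1.67 in ethanol replicates 2 and 3 and from 0.12 to 0.85 in the controls. Ethanol replicates 2 and 3 were the arrays of slide column 1, and no control array lay in that column. Array column and ethanol therefore cannot be told apart there, and leaving the column out removes the 2 livers highest for Got1. Without these 2 arrays the fold change of Got1 was 0.01, and a covariate for slide column, with the column number as a linear term, gave 0.11. The same livers had the lowest summed signals of the bile duct markers (3.57 and 3.22). Ethanol replicate 4, on slide column 3, came next at 4.72, while ethanol replicates 1 and 5 had 16.2 and 16.1. Of the hepatocyte markers, Tat, Hnf4a, Cps1, Cyp2e1 and Ass1 were higher in ethanol replicates 2, 3 and 4 than in 1 and 5. Apoa1 was lower there, and Alb, Ttr and Serpina1c showed no such split. The part of array position, cell makeup or other differences between livers in the Got1 values was not tested.

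Got2, the mitochondrial aminotransferase, ranged from 5.37 to 5.55 in control and from 5.28 to 5.70 in ethanol livers. Ethanol replicate 2 was highest and ethanol replicate 5 lowest, so the ethanol livers enclosed the controls. Its log2 fold change was -0.02 ± 0.09 (SE), with a 95% interval from -0.23 to 0.18, so a difference of the size seen in Gpd1 lay outside the interval.

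The malate dehydrogenases were also close between the groups. Mdh1 ranged from 6.37 to 6.71 in control and from 6.43 to 6.88 in ethanol livers, a difference of 0.07 ± 0.11 (SE, log2) and a 95% interval from -0.18 to 0.31, and its other probe gave 0.09 ± 0.16 (SE). Mdh2, which also works in the tricarboxylic acid cycle, ranged from 6.87 to 7.13 in control and from 6.85 to 7.19 in ethanol livers, with 0.04 ± 0.09 (SE) and an interval from -0.15 to 0.23. With quantile normalization the signs of both turned, to -0.05 and -0.07. For both enzymes 2 of the 5 ethanol livers lay above the highest control liver, and the groups overlapped.

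Among the carriers, Slc25a11, which exchanges malate for 2-oxoglutarate, had signals of 4.66 to 4.81 in the control livers and of 4.89, 4.85, 4.63, 4.90 and 4.87 in the ethanol livers. Ethanol replicates 1, 2, 4 and 5 lay above every control liver and ethanol replicate 3 below all of them. The log2 fold change was 0.09 ± 0.07 (SE), with a 95% interval from -0.07 to 0.26 and an adjusted p of 0.578 in limma, and it was 0.14 without ethanol replicate 3. The other probe gave 0.23 ± 0.12 (SE). With quantile normalization the difference of the first probe was 0.0024.

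Slc25a13, citrin, ranged from 4.22 to 4.38 in control and from 3.88 to 4.73 in ethanol livers, with an SD of 0.06 in the first group and 0.32 in the second. Ethanol replicate 2 was highest and ethanol replicate 5 lowest. The log2 fold change was -0.04 ± 0.14 (SE), with a 95% interval from -0.35 to 0.27. The other probe, which names another transcript of the gene, gave 0.26 ± 0.12 (SE), and the mean of both gave 0.11, so the sign depended on the probe. Slc25a12, aralar, had signals of 0.49, -0.40, 0.50, 0.48 and 0.61 in the control livers and from 0.23 to 0.79 in the ethanol livers. Control replicate 2 stood below all other livers, and the other 4 controls lay within the range of the ethanol group. The fold change was 0.16 ± 0.20 (SE), with an interval from -0.28 to 0.60, and it was -0.02 without control replicate 2. Within slide 1 it was -0.32, within slide 3, where control replicate 2 was the 1 control array, 0.97, and with slide as a fixed block 0.38. The other 2 probes of Slc25a12 gave 0.20 ± 0.16 (SE) and -0.29 ± 0.15 (SE).

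**Figure D3:**
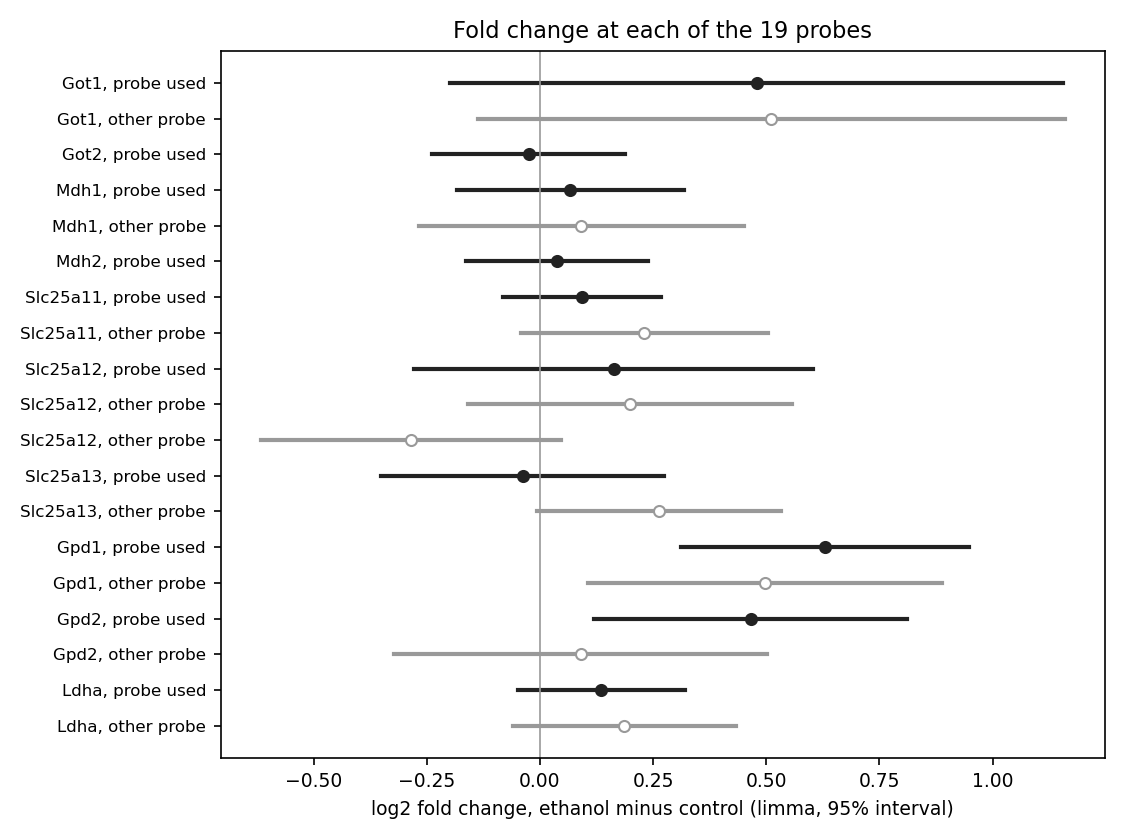
Log2 fold change, ethanol minus control, with limma's 95% interval at each of the 19 probes, filled for the probe used for the gene and open for its other probes. The intervals of both Gpd1 probes and of 1 of the 2 Gpd2 probes lie above 0, and that of every other probe includes 0.

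Partner genes were also compared within each array, which cancels the scaling of the array. For 4 pairs, the log2 signal of the second gene was taken from that of the first in each liver, and an exact permutation test, two-sided and over every assignment of the livers to groups, compared the groups. Its smallest possible p is 0.00794. Only the change between groups was read, since levels of different probes are not comparable. The cytosolic over mitochondrial aminotransferase difference, Got1 minus Got2, was higher in ethanol livers by 0.50 ± 0.30 (SE), with exact p = 0.151 and p = 0.603 adjusted over the 4 pairs, and it was above the highest control liver in 3 of 5 ethanol livers. It was 0.29 without ethanol replicate 3 and 0.66 without ethanol replicate 1 (unadjusted exact p = 0.270 and p = 0.0476). Mdh1 minus Mdh2 differed by 0.03 ± 0.14 (SE, exact p = 0.857). Gpd1 minus Gpd2 differed by 0.16 ± 0.27 (SE, exact p = 0.556), and it was 0.39 to 0.57 above the control mean in ethanol replicates 2, 4 and 5 but 0.77 below it in ethanol replicate 3. This pair gave 0.67 within slide 1 and -0.40 within slide 3. It was 0.40 without ethanol replicate 3 (unadjusted exact p = 0.0476), 0.28 without control replicate 2 and 0.06 without ethanol replicate 4. Slc25a13 minus Slc25a12 differed by -0.20 ± 0.22 (SE, exact p = 0.429), by -0.03 without control replicate 2, by 0.36 within slide 1 and by -0.999 within slide 3. The adjusted p was 0.741 for both of the last pairs and 0.857 for the malate dehydrogenases. No pair passed the test with all 10 livers. Under the alternatives tried, the smallest adjusted p of any pair in these exact tests was 0.190, so none passed there. Within slide 1, within slide 3 and with the replicate number as a block, too few assignments exist for a p under 0.05. No pair could have passed in those settings.

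**Figure D4:**
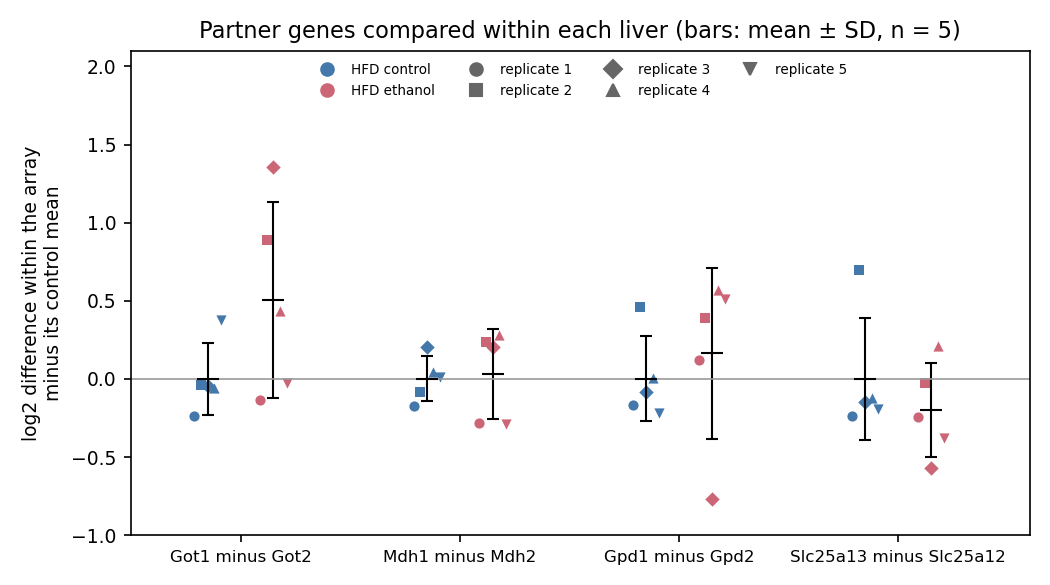
Difference of the log2 signals of 2 partner genes within each array, minus its mean in the control livers, for 5 HFD control (blue) and 5 HFD ethanol (red) livers, with bars for the mean ± SD (n = 5). The groups overlap for all 4 pairs, and ethanol replicate 3 is the highest liver for Got1 minus Got2 and the lowest for Gpd1 minus Gpd2.

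A list of 46 other genes of lactate, glycerol 3-phosphate, malate and NAD handling was examined in the same fit, of which 41 were tested, 24 with a fold change above 0 and 17 below it. Their median log2 fold change was 0.03, that of all genes, and none passed the threshold. At an unadjusted p under 0.05 there were 2 higher and 1 lower of the 41, beside 8.11% higher and 5.22% lower of all genes. Me1, the cytosolic malic enzyme, which turns malate into pyruvate and yields NADPH, had signals from 4.24 to 5.19 in control and from 5.08 to 6.47 in ethanol livers, and 4 of the 5 ethanol livers lay above every control. That was a 1.99-fold difference, 0.99 ± 0.27 (SE) on the log2 scale, and limma's adjusted p was 0.212. The difference was 0.66 within slide 1 and 1.06 within slide 3. Mpc2, a subunit of the mitochondrial pyruvate carrier, had 0.19 ± 0.08 (SE), with 0.08 under quantile normalization and 0.06 within slide 3, and its partner Mpc1 had -0.03 ± 0.12 (SE). Gk, glycerol kinase, which forms glycerol 3-phosphate from glycerol, was lower in all 5 ethanol livers than the control mean, at -0.29 ± 0.11 (SE). Without ethanol replicate 3 it was at -0.19 and without the arrays of slide column 1 at -0.15. It was thus on the other side of 0 from Gpd1, which forms the same product from dihydroxyacetone phosphate.

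By role, 8 genes of lactate and pyruvate handling had a median of 0.05, with 4 above 0 and 4 below. The other lactate dehydrogenases Ldhb and Ldhd were at -0.09 ± 0.18 (SE) and 0.12 ± 0.14 (SE). The 7 measured carriers and enzymes beside the malate-aspartate shuttle had a median of 0.27, with 4 above 0 and 3 below. Among them the dicarboxylate carrier Slc25a10 had 0.33 ± 0.16 (SE), the glutamate carrier Slc25a22 0.27 ± 0.15 (SE) and Mdh1b 0.83 ± 0.39 (SE), but Mdh1b was at -0.17 with slide as a fixed block and at 1.14 with slide as a random block. Without the arrays of slide column 1 Slc25a22 was at 0.05, and it was at 0.40 without ethanol replicate 1 and at 0.17 without ethanol replicate 3. Slc25a10 was at 0.15 within slide 1 and at 0.78 within slide 3. The 4 glycerol 3-phosphate genes had a median of 0.08, with the glycerol channel Aqp9 at 0.19 ± 0.10 (SE), and at 0.06 with quantile normalization. The 10 other redox and anaplerotic enzymes had a median of 0.01, with triosephosphate isomerase, Tpi1, at 0.13 ± 0.07 (SE), and at 0.016 with quantile normalization. The 12 genes of NAD synthesis, use and transport had a median of 0.05, and none of them had an unadjusted p under 0.05. The genes in this paragraph other than Ldhb and Ldhd, and Me1, Mpc2 and Gk above, were those with the smallest unadjusted p on the list, and Ldhb, Ldhd and Mpc1 were named for their pairing with the other genes after their values were seen.

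**Figure D5:**
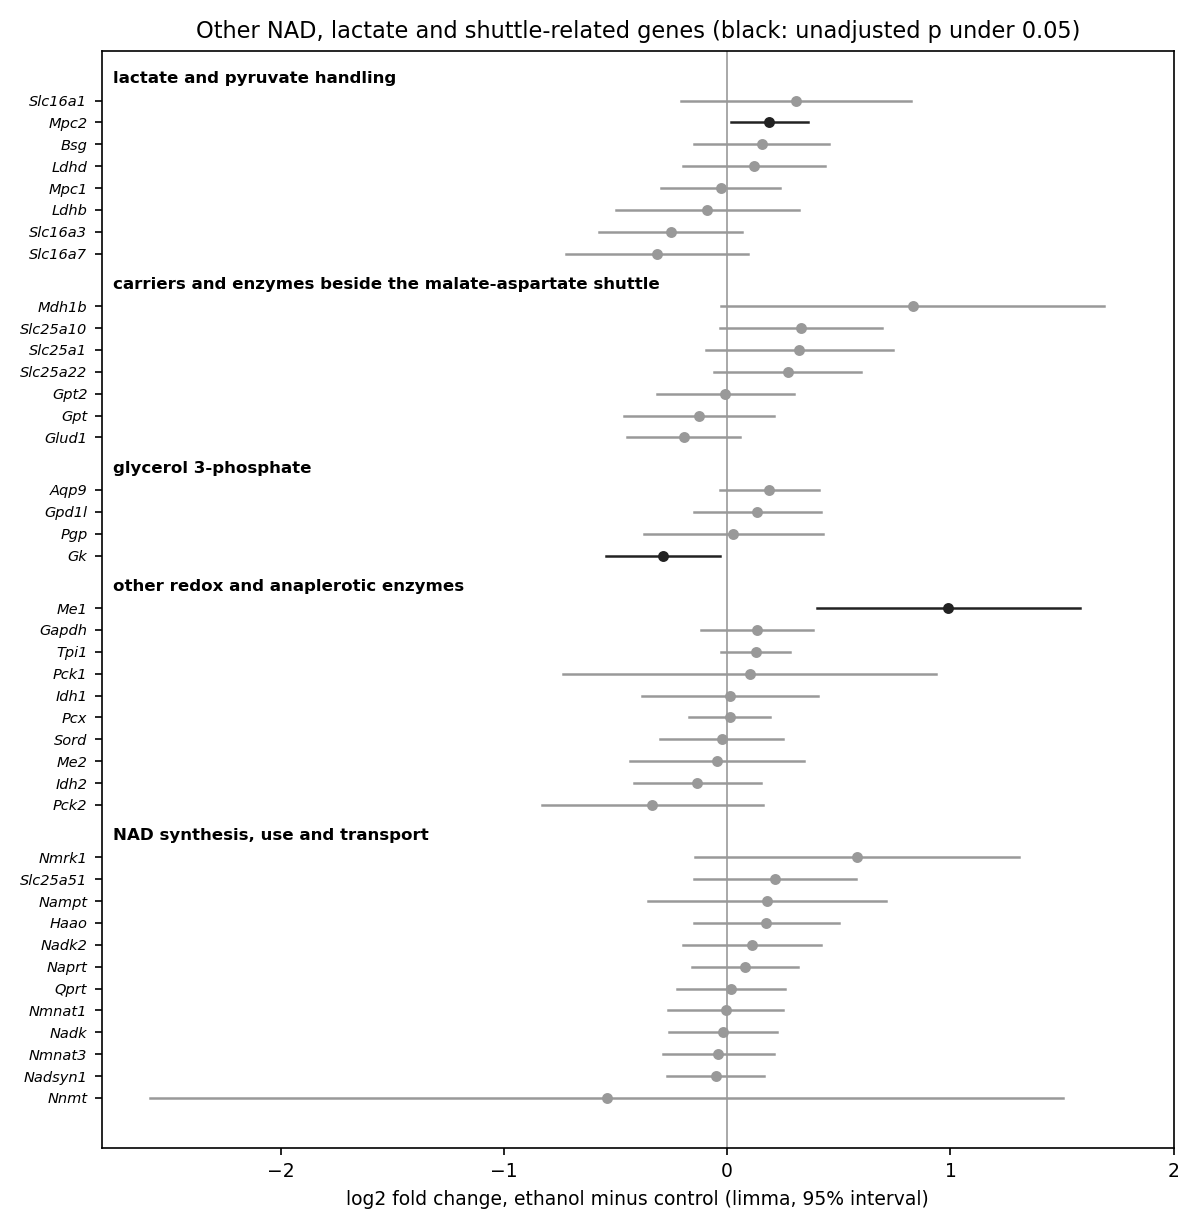
Log2 fold change, ethanol minus control, with limma's 95% interval for the 41 tested genes of the list, grouped by role, in black where the unadjusted p was under 0.05. Me1 lies at 0.99, Mpc2 at 0.19 and Gk at -0.29, and the intervals of all other genes include 0.

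The genes with the pattern most like the 3 most variable genes over the 10 livers were taken by the root mean square difference of log2 values, each centred on its mean over the 10 arrays. For Got1, with an SD of 0.57, they were Ces2a, Hgd and Srd5a1, at 0.21 each. For Gpd1, with an SD of 0.40, they were Gcat, Slc35g1 and Ddhd2, at 0.17, 0.17 and 0.18. For Gpd2, with an SD of 0.35, they were Cnp, Pnpla7 and Gdap2, at 0.14, 0.15 and 0.15. These 10 livers include both groups, so a likeness can come from the groups, a slide or single livers, and no test was made of it.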

How the data were processed

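The authors deposited 1 scanner table per array with spot intensities on a linear scale, written by Agilent's Feature Extraction software (version 10.7.3.1, design on mm9) per the file headers. They also deposited 1 table of log2 values. Differences between arrays in it followed log2 processed intensity minus the array's 75th percentile, with a correlation of 1 on each array (13212 probes). Each array had a small offset from that scaling, with a median from -0.013 (ethanol replicate 5) to 0.020 (control replicate 4). With the deposited values the log2 fold change was 0.62 for Gpd1 and 0.45 for Gpd2. How the authors made that table, and the value each probe was centred on, are not given in the sources used here. Its column medians ran from -0.12 to 0.08.

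Control spots and 872 outlier spots were dropped. Processed intensities were scaled to each array's 75th percentile (277.0 to 383.3), and after a floor of 4 signal units log2 was taken. Probes well above background on at least 4 of 5 arrays of a group were kept, 31110 of 56605. Genes were named by matching each probe's accession to RefSeq (GRCm38.p6), which gave 32994 probes 1 gene and left 23611 unnamed here. The brightest kept probe stood for a gene. Of 5027 genes with several kept probes, 1780 had fold changes of both signs. Groups were fitted with limma 3.58.1 in R 4.3.3 (lmFit, eBayes), with Benjamini-Hochberg adjustment over 15089 genes. The same fit was tested on simulated data with 200 changed genes among 15089, and found 40.0% of log2 changes of 0.5 and 79.6% of changes of 1. It found 96.4% of changes of 2. Far more genes passed there than the 3 that passed in the data, which makes the adjusted threshold less strict. These shares can therefore be too high for the data. The smallest root mean square difference between arrays was 0.301, so no array looked like a repeat.

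The genes and lists were chosen with earlier results of these data known. Named were the 10 genes, the 8 genes of the list with the smallest p, and 3 genes most like each of the 3 most variable members. The alternatives were other scalings, normexp on median signals (the mean signal was not used here), floors, filters and probe rules, the deposited log2 values, slide and slide column, a replicate block, other variance models and leaving out each array.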

Additional observations from a re-analysis of the deposited data

Results flagged for a closer look

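In 44 groups of 5 livers, each gene's or pair's most extreme liver was compared with its nearest neighbour, as a share of the group's range. Above 0.71 a liver counts as standing apart, and chance gives about 1 group in 20. There were 5 such groups. Ethanol replicate 3 stood apart at the top for Gpd2 (0.721) and at the bottom for Slc25a11 (0.795). Control replicate 2 stood apart at the bottom for Slc25a12 (0.871) and, through that gene, at the top for Slc25a13 minus Slc25a12 (0.88). Control replicate 4 stood apart at the top for Ldha (0.803). Without the liver that stood apart the log2 fold change was 0.35 for Gpd2, 0.14 for Slc25a11, -0.02 for Slc25a12 and 0.18 for Ldha, and the difference of the pair was -0.03.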

How the results depend on the processing

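None of the 10 genes passed the threshold under any alternative, and 1 to 3 had an unadjusted p under 0.05. Over all genes 3 passed. That count was 6 with normexp, 5 with a floor of 16, 6 with no filter, 12 with slide as a random block, 9 with trend and robust settings and 15 with array weights. It was 0 with slide as a fixed block, within slide 1, within slide 3, without slide 2 and with slide column as a covariate (limma, 676 to 2089 genes at an unadjusted p under 0.05). When 1 array was left out it was 0 to 7, with 0 without control replicate 3, 4 or 5 or ethanol replicate 1 (1477 to 2279 at an unadjusted p under 0.05). The labels name no shared litter or day behind a replicate number, and same-numbered livers deviated from their group means with correlations of 0.32, 0.15, 0.31, 0.06 and -0.11, so the numbers were not taken to pair the mice. With the replicate number as a block the count was 0 (2438 at an unadjusted p under 0.05), with 0 of the 10 genes passing, and 1 of 5 numbers had its own partner as best match. Gpd1 ran from 0.49 to 0.90 (adjusted p in limma 0.0834 to 1.00), Gpd2 from 0.23 to 0.88 (0.156 to 1.00) and Me1 from 0.66 to 1.26 (0.0977 to 1.00), none with a change of sign. Signs turned, in log2 units, as follows. With quantile normalization Mdh1 was -0.046 and Mdh2 -0.074, and with normexp Got2 was 0.0023. With the mean of probes Slc25a13 was 0.11 and its pair with Slc25a12 0.087. With slide as a fixed block Mdh2 was -0.041, Slc25a13 0.0043 and Mdh1b -0.17. Within slide 1 Mdh2 was -0.075, Slc25a12 -0.32, Slc25a13 0.048 and their pair 0.36, while within slide 3 Slc25a12 was 0.97 and the pair -0.999. Within slide 3 Mdh2 was -0.012, Gpd1 minus Gpd2 -0.40, Mdh1b -0.32 and Aqp9 -0.054. Without slide 2 Mdh2 was -0.020. Without the arrays of slide column 1 Mdh1 was -9.8e-05 and Slc25a12 -0.0055, and with array weights Slc25a12 was -0.011. Leaving out 1 array gave -0.091 to 0.013 for Got2, -0.00061 to 0.092 for Mdh2, -0.021 to 0.23 for Slc25a12, -0.155 to 0.056 for Slc25a13 and -0.033 to 0.11 for Mdh1 minus Mdh2. The cause was not tested. The likeness ranking was not recomputed under the alternatives. In the simulated data, with noise independent between genes, 40.0% of log2 changes of 0.5 were called, and smaller changes were not simulated.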

Other observations

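Nnmt, which methylates nicotinamide and so draws on the precursor of NAD, had the widest spread of the 41 listed genes tested and was named after its values were seen. Its log2 signals were 2.99, 4.81, 5.52, 5.06 and 5.15 in control replicates 1 to 5 and 2.23, 5.93, 5.64, 5.52 and 1.51 in ethanol replicates 1 to 5. Ethanol replicates 1 and 5 and control replicate 1 were low and the other 7 livers were high. The log2 fold change was -0.54 ± 0.92 (SE), with an adjusted p of 0.816 in limma.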
